A study of Mus musculus with 50 samples.

Results

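The 9 transcripts Slc1a3, Slc1a2, Aqp4, Gja1, Gfap, Aldh1l1, Sparcl1, Clu and Metrn, all known from astrocytes, were followed in sorted hippocampal microglia. They were chosen by name and matched to the gene symbols of the count files, which gave 9 of 53700 genes. Each symbol matched 1 gene, and all 9 passed the filter on low counts, at least 1 CPM (counts scaled to library size) in at least 3 of 50 mice, which kept 16696 genes.

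The study asked how stress in early life shapes microglia at once and in adulthood, and how adult microglia then respond to an inflammatory challenge. Microglia were sorted as CD45int CD11b+ cells from the hippocampus of 50 male C57BL/6J mice, and each mouse gave 1 sequenced library. P9-CTR mice (n = 12) were reared under standard conditions, and P9-ELS mice (n = 13) with little bedding and nesting material from postnatal day 2 to 9, and both were collected untreated at day 9. Adults of both rearing conditions received an injection at day 200 of either PBS, in P200-CTR-PBS (n = 7) and P200-ELS-PBS (n = 6), or 1 mg/kg LPS, in P200-CTR-LPS (n = 7) and P200-ELS-LPS (n = 5). The injection was intraperitoneal, and these adults were collected 3 hours later. LPS comes from the wall of bacteria and sets off innate immune responses. Adult tissue was also passed through Percoll to remove myelin and pup tissue was not, so that age and this step cannot be told apart in any comparison between the ages.

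The total count per mouse ran from 13605733 to 31020979 in P9-CTR and from 5152838 to 36031616 in P9-ELS. In adults it ran from 13996535 to 28616316 in CTR-PBS, from 18257922 to 34990227 in ELS-PBS, from 13900212 to 42231258 in CTR-LPS and from 15338010 to 20923733 in ELS-LPS. A count of 0 allows up to 3 counts, which is 0.0786 to 0.221 CPM in an adult. Of the libraries, 3 stood apart by their genes with a count: P9-ELS-19.3 with 12482, P9-ELS-19.2 with 15731 and CTR-PBS-1.1 with 12854, while the lowest of the others had 16485.

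Astrocytes clear glutamate from synapses, move water and potassium, join into networks through gap junctions and release proteins that act on neurons. Slc1a3 and Slc1a2 encode their glutamate transporters, Aqp4 a water channel of their endfeet and Gja1 a connexin of gap junctions. Gfap encodes an intermediate filament, Aldh1l1 an enzyme of folate metabolism, and Sparcl1, Clu and Metrn secreted proteins: a matrix protein of synapses, a chaperone and a factor of neurite growth and glial differentiation. Radial glia, the progenitors of hippocampal neurons and astrocytes, share several of these transcripts, above all Slc1a3.

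The libraries carried the markers of the sorted cells. The 11 microglia markers summed to 53202 ± 6229 CPM (SD, n = 12) in P9-CTR, 56786 ± 4692 (n = 13) in P9-ELS, 83610 ± 2476 (n = 7) in CTR-PBS and 81876 ± 2734 (n = 6) in ELS-PBS. With LPS the sums were 75096 ± 3969 (n = 7) in CTR and 79358 ± 4914 (n = 5) in ELS. No microglia marker was at 0 throughout a group.

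The 9 astrocyte transcripts summed to 331 ± 86.0 CPM (SD, n = 12) in P9-CTR, 253 ± 85.2 (n = 13) in P9-ELS, 365 ± 69.7 (n = 7) in CTR-PBS and 392 ± 53.28 (n = 6) in ELS-PBS. With LPS they summed to 557 ± 44.6 (n = 7) in CTR and 523 ± 62.0 (n = 5) in ELS. The make-up of the sum differed between the ages. Slc1a3 made up a mean of 37.1% of the sum in P9-CTR mice and 41.6% in P9-ELS mice, and between 97.6% and 98.8% in the 4 adult groups. The other 8 summed to 211 ± 67.2 CPM in P9-CTR and 150 ± 60.3 in P9-ELS, and to 8.55 ± 4.86 in CTR-PBS, 4.60 ± 1.55 in ELS-PBS, 7.83 ± 3.597 in CTR-LPS and 7.23 ± 1.99 in ELS-LPS. In adults they were thus low everywhere, at counts of 0 to 118 per gene and mouse, while Slc1a3 had 4179 to 19980 counts. In bulk RNA, fewer cells of a type and less RNA per cell cannot be told apart.

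**Figure D1:**
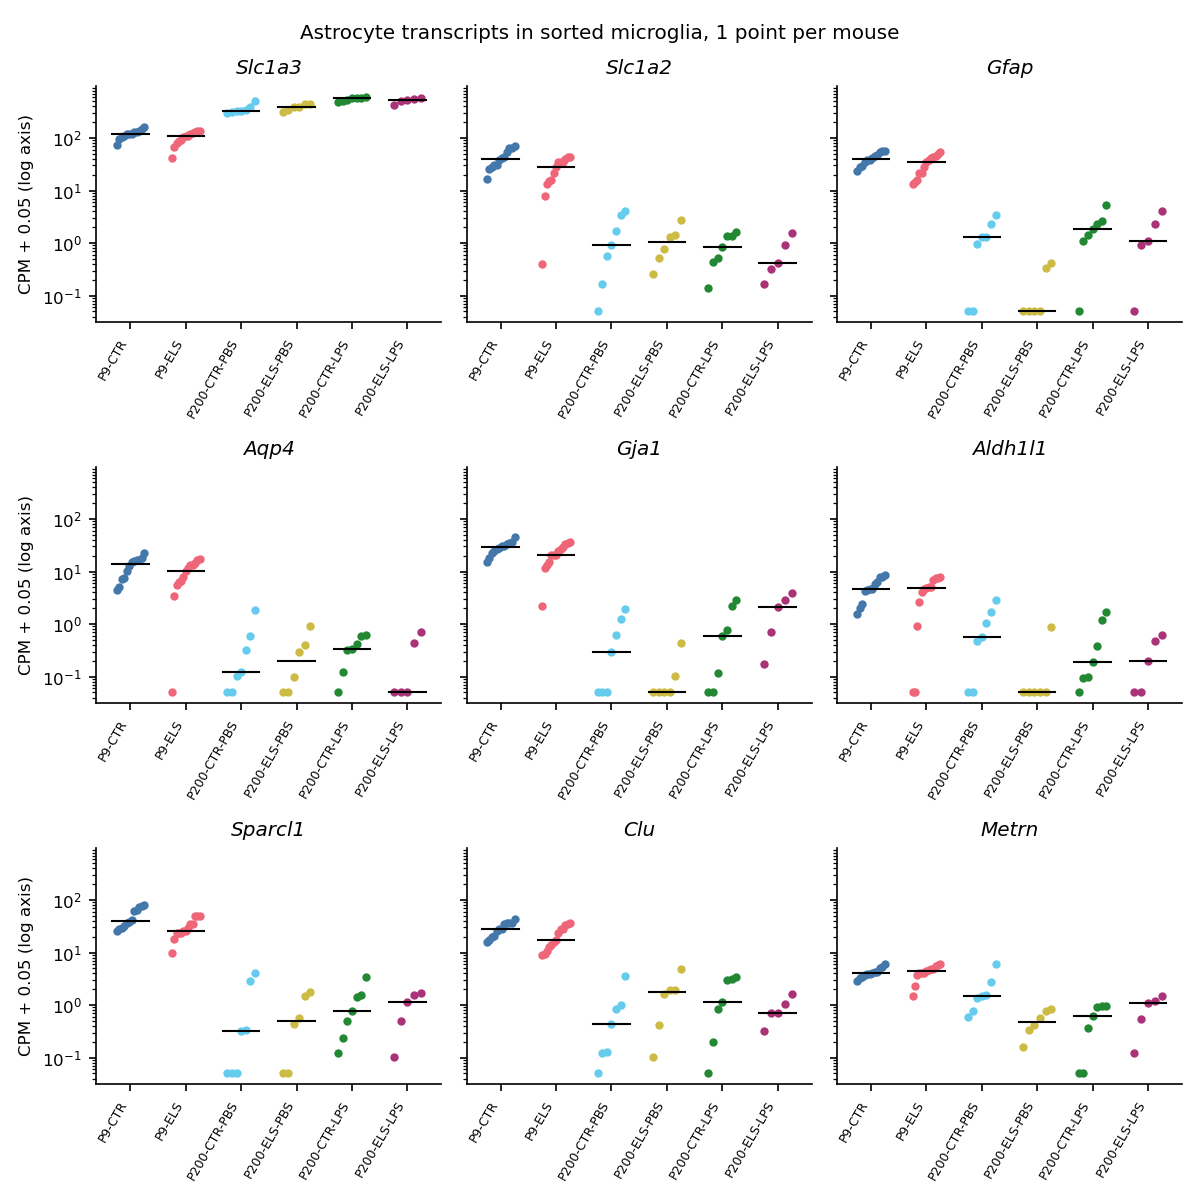
Each point is 1 of 50 mice, with CPM plus 0.05 on a log axis for each of the 9 members, mice sorted by value within a group, and a black line at the group median. Slc1a3 lies between 296 and 609 CPM in adults, above all pups, while the other 8 are mostly under 5 CPM in adults.

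Per length of the canonical transcript, Slc1a3 was highest in all 6 groups, with a mean of 28.6 ± 5.50 CPM per kilobase (SD, n = 12) for P9-CTR and 84.9 ± 16.8 (n = 7) for CTR-PBS. In P9-CTR the order went on with Clu (15.7 ± 4.91), Gfap (14.3 ± 3.89) and Sparcl1 (12.5 ± 5.32), then Gja1 (6.12 ± 1.77) and Slc1a2 (3.50 ± 1.42). Aqp4 (2.45 ± 1.13), Metrn (1.51 ± 0.337) and Aldh1l1 (1.195 ± 0.560) came last. Clu, Gfap and Sparcl1 were within 1 SD of each other, as were Slc1a2 and Aqp4, and Metrn and Aldh1l1. P9-ELS mice had the same order. With the length of all exons in its place, Slc1a3 was again highest in all 6 groups, while Clu moved from rank 2 to 4 in P9-CTR. In CTR-PBS the next after Slc1a3 was Metrn at 0.733 ± 0.670, within 1 SD of Clu (0.459 ± 0.691) and Gfap (0.445 ± 0.416). The mouse CTR-PBS-1.1 held the highest Metrn, at 2.15, and this rank rested on it.

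Each of the 9 lies at its own place in the genome, on 9 different chromosomes of GRCm39. Slc1a3 (ENSMUSG00000005360) lies on the minus strand of chr15:8663604-8741595, Slc1a2 (ENSMUSG00000005089) on the plus strand of chr2:102488574-102621129 and Gfap (ENSMUSG00000020932) on the minus strand of chr11:102778159-102791738. Gja1 (ENSMUSG00000050953) lies on the plus strand of chr10:56253241-56278609 and Metrn (ENSMUSG00000002274) on the minus strand of chr17:26012195-26016057. Annotated noncoding RNAs share up to 7.72% of a member's exon bases, as Gm26703 does with Sparcl1 on the opposite strand, with 86 counts over all mice against 23716 for Sparcl1. For Aldh1l1 the opposite-strand Gm15756 shared 6.11% and had 341 counts against 3046. Whether the authors counted by strand is not given in the sources used here, so reads of these pairs cannot be told apart.

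The 250 bases before the start of each member's canonical transcript were searched on both strands, beside those of all 21626 protein-coding genes. TTGGC, letters bound by nuclear factor I, a factor of astrocyte differentiation, stood before 3 of 9 members (Gfap, Aqp4 and Slc1a2) and before 43.3% of all genes. TTCNNNGAA, letters bound by STAT factors, stood before Slc1a3 alone among the 9, and before 7.73% of all genes. GAGGAA, letters bound by the myeloid factor PU.1, stood before Gja1 and Metrn and before 23.0% of all genes. ACAAAG, a SOX motif, stood before 0 of 9 members and 15.9% of all genes, and TATAAA before Slc1a3 and Aldh1l1 and 11.9% of all genes. These windows hold exon bases of other transcripts in 5 members, with all 250 bases for Slc1a3 and Sparcl1, and other annotated starts were not searched. The 3 windows below are free of exon bases and belong to members on which adult results turn, or, for Slc1a2, to the partner transporter of Slc1a3. Capitals mark TTGGC or its reverse complement before Gfap (minus strand, chr11:102788186-102788435) and Slc1a2 (plus strand, chr2:102488324-102488573), and GAGGAA before Metrn (minus strand, chr17:26016058-26016307), all in GRCm39. A match describes the letters and not a bound site.
Gfap: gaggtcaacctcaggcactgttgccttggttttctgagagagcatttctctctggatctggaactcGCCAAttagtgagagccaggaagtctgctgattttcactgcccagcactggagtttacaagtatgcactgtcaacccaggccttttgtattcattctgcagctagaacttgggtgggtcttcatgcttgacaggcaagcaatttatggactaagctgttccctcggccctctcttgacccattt
Slc1a2: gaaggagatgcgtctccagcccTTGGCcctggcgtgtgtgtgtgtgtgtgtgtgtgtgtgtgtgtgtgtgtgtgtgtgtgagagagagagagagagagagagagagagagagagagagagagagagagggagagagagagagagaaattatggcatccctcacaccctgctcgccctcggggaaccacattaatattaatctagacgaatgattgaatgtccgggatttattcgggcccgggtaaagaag
Metrn: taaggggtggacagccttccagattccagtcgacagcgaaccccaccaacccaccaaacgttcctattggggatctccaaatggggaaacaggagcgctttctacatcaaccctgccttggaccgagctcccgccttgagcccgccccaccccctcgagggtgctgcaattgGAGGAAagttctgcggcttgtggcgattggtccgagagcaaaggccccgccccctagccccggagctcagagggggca

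Between day 9 and day 200, Slc1a3 went up and the other members went down. In CTR mice 8 of 9 members were called in edgeR's quasi-likelihood test, which needs both a Benjamini-Hochberg adjusted p under 0.05 and a log2 difference of more than 1 in either direction, against 26.4% of all genes tested. Of the 8, 7 were lower in CTR-PBS than in P9-CTR and 1, Slc1a3, was higher. In ELS mice 9 of 9 were called, 8 lower and Slc1a3 higher, against 26.2% of all genes tested. The likelihood-ratio test and DESeq2 each called 9 in both conditions, beside 4582 and 4538 of all genes in CTR and 4544 and 4498 in ELS. The median log2 fold change of the 9 was -4.88 in CTR and -5.01 in ELS, and that of all genes tested -0.09 and -0.01.

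Slc1a3, the transporter of radial glia and astrocytes, had 72.1, 118 and 159 CPM (lowest, median, highest) in P9-CTR and 296, 323 and 503 CPM in CTR-PBS. In P9-ELS it had 41.4, 109 and 136 CPM, and in ELS-PBS 313, 391 and 452 CPM. Every adult lay above every pup in both conditions. Its level rose 2.96-fold in CTR, a log2 fold change of 1.57 (SE 0.14, adjusted p = 3.56e-13 in edgeR's quasi-likelihood test with Benjamini-Hochberg adjustment). In ELS it rose 3.76-fold, a log2 fold change of 1.91 (SE 0.14, adjusted p = 8.99e-16).

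Slc1a2, the other glutamate transporter, took the opposite course. It had 16.7, 40.2 and 69.9 CPM (lowest, median, highest) in P9-CTR and 0, 0.851 and 4.03 CPM in CTR-PBS. In P9-ELS it had 0.358, 28.5 and 44.0 CPM, and in ELS-PBS 0.207, 0.990 and 2.72 CPM. The CTR groups did not overlap, and the ELS groups overlapped through the mouse P9-ELS-19.3. In CTR Slc1a2 changed by -4.77 on the log2 scale (SE 0.64, adjusted p = 2.43e-08 by edgeR's quasi-likelihood test), and by -4.52 (SE 0.68, adjusted p = 3.33e-07) in ELS.

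Of the channel genes, Aqp4 fell from 12.6 ± 5.81 CPM (SD, n = 12) in P9-CTR to 0.394 ± 0.656 (n = 7) in CTR-PBS, a log2 fold change of -4.88 (SE 0.79, adjusted p = 1.31e-06 in edgeR's quasi-likelihood test). Gja1 had 15.16, 29.0 and 45.9 CPM (lowest, median, highest) in P9-CTR and 0, 0.238 and 1.92 CPM in CTR-PBS, with no overlap. In P9-ELS it had 2.15, 20.9 and 36.2 CPM, and in ELS-PBS 0, 0 and 0.391 CPM, again with no overlap. The fall of Gja1 was -5.63 (SE 0.77) in CTR and -8.02 (SE 0.99) in ELS on the log2 scale, with adjusted p = 4.14e-08 and 3.03e-09 in edgeR's quasi-likelihood test. Aqp4 in ELS fell by 5.27 (SE 0.88, adjusted p = 2.51e-06), with groups that overlapped through the pup P9-ELS-19.3 at 0.

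The filament gene Gfap had 23.0, 39.3 and 56.6 CPM (lowest, median, highest) in P9-CTR and 0, 1.23 and 3.34 CPM in CTR-PBS. In P9-ELS it had 13.5, 35.4 and 54.7 CPM, and in ELS-PBS 0, 0 and 0.362 CPM. In neither condition did the ages overlap. On the log2 scale Gfap changed by -4.97 in CTR (SE 0.63, adjusted p = 5.15e-09 by edgeR's quasi-likelihood test) and by -8.21 (SE 0.85, adjusted p = 2.17e-11) in ELS. Aldh1l1, the folate enzyme, was the least abundant per length at day 9 and fell by 2.44 (SE 0.88, adjusted p = 0.0208) in CTR and by 5.01 (SE 1.13, adjusted p = 0.000292) in ELS on the log2 scale, with overlap in both.

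Among the secreted proteins, Sparcl1 fell from 48.9 ± 20.8 CPM (SD, n = 12) to 1.04 ± 1.63 (n = 7) in CTR, a log2 fold change of -5.54 (SE 0.75, adjusted p = 2.75e-08 in edgeR's quasi-likelihood test). Clu fell from 28.4 ± 8.92 to 0.833 ± 1.26 CPM in CTR, a log2 fold change of -5.02 (SE 0.68, adjusted p = 2.67e-08). In ELS the log2 fold changes were -5.44 (SE 0.80) for Sparcl1 and -3.57 (SE 0.66) for Clu. For both genes the ages did not overlap in either condition. Metrn had the smallest difference: 2.86, 3.99 and 6.06 CPM (lowest, median, highest) in P9-CTR and 0.549, 1.47 and 5.90 CPM in CTR-PBS. All CTR-PBS mice but CTR-PBS-1.1, which held 5.90 CPM, lay below all P9-CTR mice. In CTR the log2 fold change of Metrn was -1.04 (SE 0.46, adjusted p = 0.0606), and without CTR-PBS-1.1 it was -1.59 (adjusted p = 0.00469 in edgeR's quasi-likelihood test). It was also called with DESeq2 (adjusted p = 0.0177) and in the likelihood-ratio test (0.0208). In ELS Metrn fell by 3.18 (SE 0.55, adjusted p = 5.34e-06), and no ELS-PBS mouse reached a P9-ELS mouse.

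The size of some falls depended on single adult mice, while all of these calls stayed. Leaving out 1 adult at a time, Gja1 in ELS ran from -10.6 to -7.70 and Aldh1l1 in ELS from -9.52 to -4.71 on the log2 scale. In CTR Aqp4 ran from -6.13 to -4.66, Clu from -6.21 to -4.80 and Sparcl1 from -6.63 to -5.31.

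Groups did not overlap between the ages in 7 of 9 members in CTR (all but Aldh1l1 and Metrn) and in 6 of 9 in ELS (all but Aqp4, Slc1a2 and Aldh1l1). Of all 16696 genes tested, 2854 did not overlap in CTR and 1941 in ELS. The interaction of age and condition called 0 of 9 members in edgeR's quasi-likelihood test, against 0.0299% of all genes tested. It called 0 in the likelihood-ratio test and 0 with DESeq2, beside 29 and 20 of all genes. At an unadjusted p under 0.05, for which no share of all genes is given, there were 4 members. They were Gfap (-3.24, SE 0.91), Aldh1l1 (-2.56, SE 1.25), Gja1 (-2.40, SE 1.09) and Metrn (-2.14, SE 0.66), and the lowest adjusted p of the 9 was 0.258. The larger falls of Gfap and Gja1 in ELS than in CTR were therefore not called as differences.

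**Figure D2:**
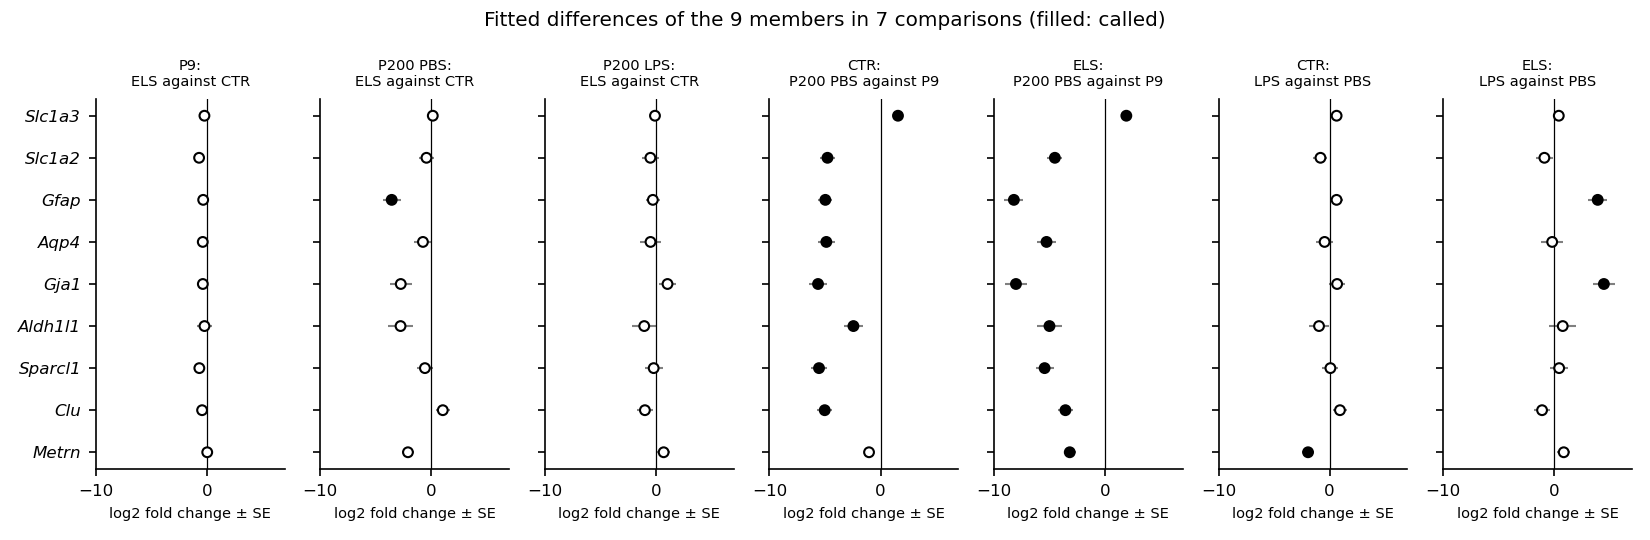
Each panel is 1 of 7 comparisons, with the fitted log2 fold change of the first-named group against the second on the x axis, 1 point per member, bars of 1 standard error, and filled points for called members. Between the ages Slc1a3 is the only filled point to the right of 0, at 1.57 in CTR and 1.91 in ELS.

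Markers of other cells moved with age beside the members, and their part in the members' values was not tested. Of 33 tested genes of a wider astrocyte list of 36, 27 were lower and 1 was higher in CTR, and 25 were lower and 1 was higher in ELS, and over the list the medians were -5.19 (CTR) and -4.14 (ELS) on the log2 scale. The gene that was higher in both was F3, which encodes tissue factor, from 1.61 ± 0.666 CPM (SD, n = 12) in P9-CTR to 6.71 ± 3.25 (n = 7) in CTR-PBS. Glul, which encodes glutamine synthetase and is not restricted to astrocytes, was the most abundant gene of the list in all 6 groups. It held 487.9 ± 68.3 CPM in P9-CTR and 587 ± 27.2 in CTR-PBS, which was 51.34% and 85.6% of the list's sum of 950 ± 113 and 685 ± 31.4 CPM. Slc6a11, Ppp1r3c, Ntsr2 and Chrdl1 had 0 counts in all CTR-PBS mice, and Slc7a10, Gjb6, Ppp1r3c and Chrdl1 in all ELS-PBS mice.

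All 8 markers of radial glia were lower at day 200 in both conditions, with a sum of 214 ± 34.6 CPM (SD, n = 12) in P9-CTR, 183 ± 63.0 (n = 13) in P9-ELS, 6.23 ± 5.41 (n = 7) in CTR-PBS and 2.73 ± 1.63 (n = 6) in ELS-PBS. The most abundant of them over all mice, the lipid-binding gene Fabp7, went from 86.1 ± 18.27 CPM in P9-CTR to 0.2501 ± 0.343 in CTR-PBS. Sox2 and Hes5 had 0 counts in all ELS-PBS mice. Slc1a3, which radial glia also carry, was higher at day 200 in both conditions, and the cause of this difference from the 8 genes was not tested.

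Of 10 neuron markers, 10 were lower in CTR and 8 in ELS, with sums of 207 ± 66.5 CPM in P9-CTR, 144 ± 53.19 in P9-ELS, 11.0 ± 6.30 in CTR-PBS and 9.09 ± 2.70 in ELS-PBS. The most abundant over all mice was Map2, of the neuronal cytoskeleton, and none was at 0 throughout a group. Of 5 border macrophage markers 5 were lower in both conditions, with a sum of 725 ± 126 CPM in P9-CTR and 6.06 ± 2.26 in CTR-PBS, nearly all of it Mrc1, a mannose receptor. Of 5 tested markers of oligodendrocyte precursors 5 were lower in CTR and 3 in ELS, with sums of 13.7 ± 6.83 CPM in P9-CTR and 0.475 ± 0.484 in CTR-PBS. Olig2 and Gpr17 were at 0 in all CTR-PBS mice. Myelinating oligodendrocyte markers summed to 144 ± 15.07 CPM in P9-CTR and 145 ± 32.1 in CTR-PBS, most of it Cnp. Of 7 tested, 3 were higher in both conditions (Ermn, Mobp and Mag), and 1 was lower in CTR. Ermn and Mobp were low in adults, with SDs close to or above the mean. Ermn held 0.277 ± 0.557 CPM (SD, n = 7) in CTR-PBS and 0.949 ± 0.910 (n = 6) in ELS-PBS. Mobp held 0.486 ± 0.772 and 0.394 ± 0.497 CPM. Of 11 microglia markers Tmem119 was higher in both, and the other 10 were not called.

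Of 8 tested endothelial genes 4 were lower in CTR, and 4 were lower and 1 higher in ELS, with a sum of 103 ± 17.4 CPM in P9-CTR and 175 ± 15.3 in CTR-PBS, most of it the glucose transporter gene Slc2a1. Of 3 mural genes 2 were lower in both, and Rgs5 and Kcnj8 were at 0 in all ELS-PBS mice. Of 3 ependymal and choroid genes 1 was lower in both, and Foxj1 and Ccdc153 were at 0 in all mice of the 4 adult groups. Of 2 monocyte and neutrophil genes, Ccr2 was higher and the other lower in both, and of 5 red cell genes 4 were lower in both. A list of 12 genes of reactive astrocytes, of which 9 were tested, had 5 lower in both, with a sum of 25.3 ± 3.52 CPM in P9-CTR and 13.4 ± 2.92 in CTR-PBS. The largest differences of called list genes were for Ppp1r3c, Slc6a11 and Tubb3 in CTR and Fabp7, Rgs5 and Hbb-bs in ELS downwards, and Ermn, Mobp and Ccr2 upwards in both.

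**Figure D3:**
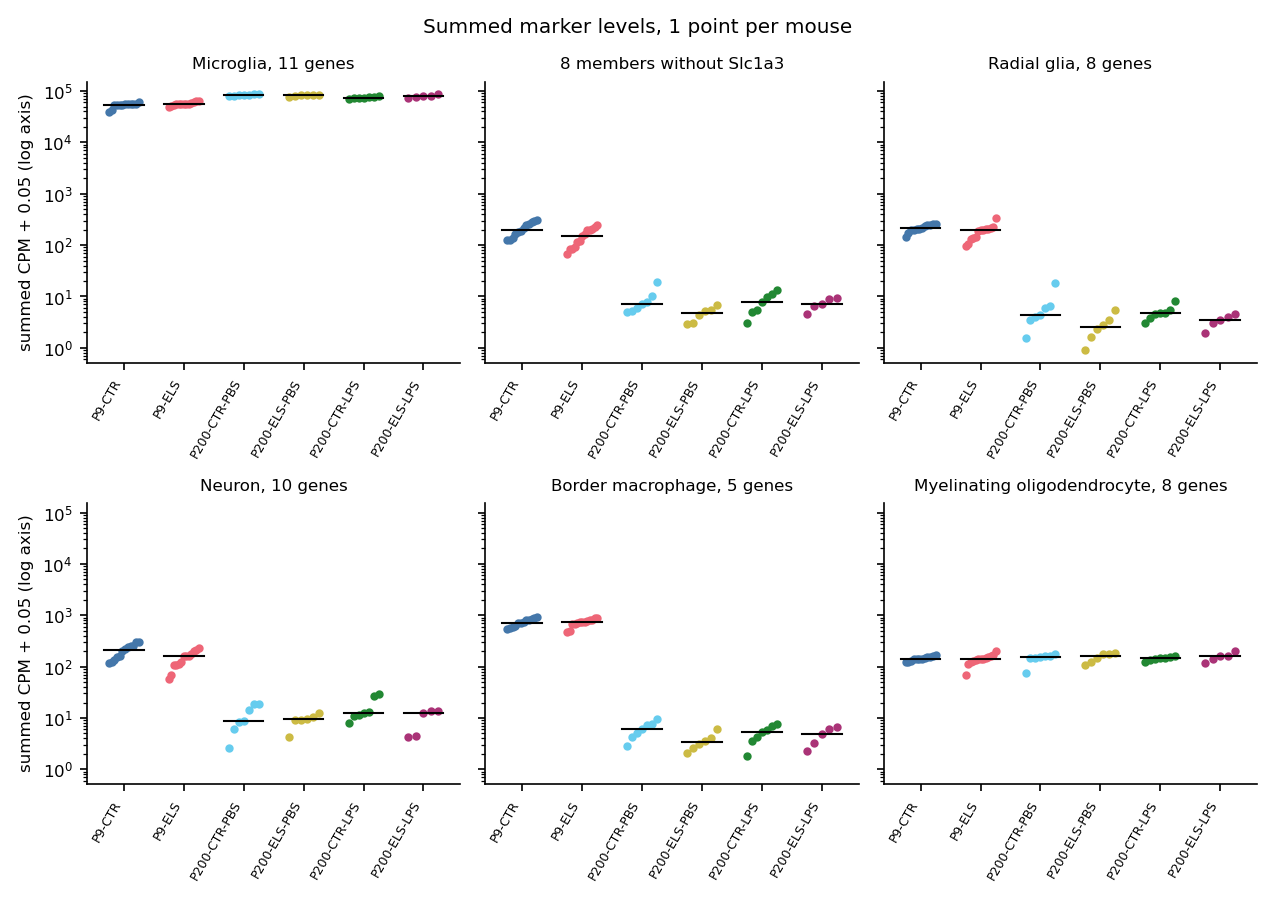
Each point is 1 of 50 mice, with summed CPM plus 0.05 on a log axis for 6 sets of genes, mice sorted by value within a group, and a black line at the group median. The 8 members without Slc1a3 fall from a mean of 211 CPM in P9-CTR to 8.55 in CTR-PBS, beside radial glia (214 to 6.23) and neuron markers (207 to 11.0).

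At day 9, early-life stress was set against control rearing to find its immediate effect. In edgeR's quasi-likelihood test 0 of 9 members were called, against 0% of all genes tested. At an unadjusted p under 0.05 there were 0 members. The likelihood-ratio test and DESeq2 called 0 members, beside 1 and 0 of all genes. The log2 fold change was below 0 in 8 of 9 members, from -0.70 for Slc1a2 (SE 0.42) and -0.68 for Sparcl1 (SE 0.46) to 0.03 for Metrn (SE 0.37), and the lowest adjusted p was 0.922. The median of the 9 was -0.37, beside 0.003 for all genes tested. Mean Slc1a2 was 42.0 ± 17.102 CPM (SD, n = 12) for P9-CTR and 25.8 ± 14.3 (n = 13) in P9-ELS, and Sparcl1 at 48.9 ± 20.8 and 30.5 ± 12.6. Of 13 P9-ELS mice, 5 were below all P9-CTR mice for Slc1a2 and 7 for Sparcl1, and the rest overlapped with them. The other marker lists also had 0 called genes, and the medians were -0.38 for the wider astrocyte list, -0.48 for radial glia, -0.61 for neurons and 0.01 for microglia. The lowest medians were those of oligodendrocyte precursors at -0.95 and mural genes at -0.81.

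Mouse labels carry a number before a point, whose meaning is not given in the sources used here, and each number at day 9 belongs to 1 condition. The sum of the 8 members without Slc1a3 had a mean of 297 CPM for number 17 (n = 3) and 235 for number 15 (n = 2) of P9-CTR, and 153, 163 and 188 for numbers 52, 51 and 58. In P9-ELS it was 124, 130, 157 and 180 CPM for numbers 9, 19, 55 and 53. Numbers 15 and 17 of P9-CTR thus lay above the others, number 58 lay just above the highest ELS number, and numbers 51 and 52 lay in the range of the ELS numbers. Numbers 15 and 17 also had the deepest P9-CTR libraries, with total counts from 25708447 to 31020979. The part of depth or number in the difference was not tested.

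In adults given PBS, early-life stress was compared with control rearing to find its lasting effect. In edgeR's quasi-likelihood test 1 of 9 members was called, Gfap, lower in ELS, against 0.156% of all genes tested. Gfap had 0 counts in 2 CTR-PBS mice and 18, 23, 36, 56 and 73 in the others, and 0 counts in 4 ELS-PBS mice and 7 and 8 in the others. The groups overlapped, since both held mice at 0. The mean was 1.281 ± 1.195 CPM (SD, n = 7) in CTR-PBS and 0.108 ± 0.169 (n = 6) in ELS-PBS. Gfap was lower by 3.58 on the log2 scale (SE 0.82, adjusted p = 0.0466 in edgeR's quasi-likelihood test). An exact permutation test of log2 CPM over the 13 mice, chosen after seeing the data, gave p = 0.0536 (2-sided). It is 1 of 4 exact tests, all run on adult differences that had already been called in these mice. Their p do not count that choice, and are descriptions of single values.

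The call of Gfap depended on single mice and on the fit. It was kept without CTR-PBS-15.1 (adjusted p = 0.0195 in edgeR's quasi-likelihood test, beside 75 of all genes called) or ELS-PBS-11.1 (0.0408, beside 19). It was lost without CTR-PBS-1.1, CTR-PBS-5.1, CTR-PBS-5.2, CTR-PBS-8.1, CTR-PBS-18.1 or CTR-PBS-18.2 and without ELS-PBS-2.1, ELS-PBS-4.1, ELS-PBS-17.1, ELS-PBS-17.2 or ELS-PBS-20.2, with adjusted p from 0.0523 to 0.118 over these 11 fits and log2 fold changes from -4.28 to -3.14. Of all genes, 26 were called with all mice. In these 11 fits 63 were called without ELS-PBS-17.2, and from 1 to 9 otherwise. The call of Gfap was also lost, at log2 fold changes of like size, with the size factors of DESeq2 in edgeR (-3.59, adjusted p = 0.0512), with all genes that had a count (-3.59, 0.0637), with only the groups compared (-3.52, 0.485) and with counts summed per number (-3.19, 0.172). In the same order, 6, 2, 0 and 7 of all genes were called. Gfap stayed called without the 3 libraries with fewest genes (-3.81, 0.0304), beside 27 of all genes. The likelihood-ratio test and DESeq2 each called 2 members, Gfap and Metrn, and of all genes 191 of 16696 and 153 of 15724.

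Metrn was at 1.47 CPM (median) in CTR-PBS, between 0.549 and 5.90, and at 0.435 in ELS-PBS, between 0.109 and 0.776. Of 6 ELS-PBS mice, 4 lay below all CTR-PBS mice. Metrn was not called in edgeR's quasi-likelihood test (-2.11, SE 0.56, adjusted p = 0.0766). Its adjusted p in the likelihood-ratio test was 0.00625, and with DESeq2 it was 0.00505. At an unadjusted p under 0.05, for which no share of all genes is given, there were 4 members in the quasi-likelihood test. They were Gfap, Metrn, Gja1 (-2.76, SE 0.98) and Aldh1l1 (-2.78, SE 1.09). Aldh1l1 had a count in 1 of 6 ELS-PBS mice, ELS-PBS-17.2, with 17 counts, and without that mouse it was called (-7.33, adjusted p = 0.0344) and Gfap was not. Clu was the member with the largest value above 0, at 1.02 (SE 0.65), and Slc1a3 was at 0.12 (SE 0.17). The other marker lists held 0 called genes between ELS-PBS and CTR-PBS in edgeR's quasi-likelihood test. The wider astrocyte list had a median of 0.09 and a sum of 685 ± 31.4 CPM in CTR-PBS and 850 ± 303 in ELS-PBS, and radial glia had a median of -1.41. Medians were also -1.96 for mural genes, -1.17 for border macrophages and 1.17 for oligodendrocyte precursors.

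In adults given LPS, 0 of 9 members were called between ELS and CTR in edgeR's quasi-likelihood test, against 0% of all genes tested. There were 0 members at an unadjusted p under 0.05. The likelihood-ratio test and DESeq2 called 0 members, beside 10 and 2 of all genes. The log2 fold changes ran from -1.06 (Aldh1l1, SE 1.13) to 1.04 (Gja1, SE 0.76), with Gfap at -0.28 (SE 0.65). The difference of Gfap that was called in PBS mice was not called here. The interaction of LPS and condition, which tests whether the 2 differ, had a log2 value of 3.29 for Gfap (SE 1.05, adjusted p = 0.391).

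LPS against PBS was compared within each rearing condition. In CTR 1 of 9 members was called, Metrn, lower after LPS, against 9.62% of all genes tested. Metrn had 0.549, 1.47 and 5.90 CPM (lowest, median, highest) in CTR-PBS and 0, 0.563 and 0.926 CPM in CTR-LPS. The groups overlapped, and 3 of 7 CTR-LPS mice lay below all CTR-PBS mice. Its log2 fold change was -1.94 (SE 0.52, adjusted p = 0.00661 in edgeR's quasi-likelihood test), and an exact permutation test of log2 CPM gave p = 0.0117 (2-sided), or 0.0233 adjusted over the 4 exact tests, neither counting the choice of the gene. Without CTR-PBS-1.1, the mouse with the highest value, it was -1.39 and not called (adjusted p = 0.0538), and with only the groups compared the adjusted p was 0.125. The likelihood-ratio test and DESeq2 each called 1 member, beside 1913 and 1832 of all genes. Without CTR-PBS-18.2, which held the highest Clu of its group at 3.55 CPM, Clu was called as higher after LPS (2.12, adjusted p = 0.0250).

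Slc1a3 had 296, 323 and 503 CPM (lowest, median, highest) in CTR-PBS and 477, 571 and 609 CPM in CTR-LPS. All CTR-LPS mice but 1 lay above all CTR-PBS mice. Its log2 fold change of 0.63 (SE 0.16, adjusted p = 0.00492 in edgeR's quasi-likelihood test) was past the p threshold and under the fold threshold, so that Slc1a3 was not called. In ELS it was at 391 CPM (median) in ELS-PBS and at 416, 510, 518, 552 and 581 CPM in the 5 ELS-LPS mice. Its log2 fold change there was 0.41 (SE 0.18, adjusted p = 0.146), and the interaction was -0.21 (SE 0.25, adjusted p = 0.975).

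In ELS 2 of 9 members were called between LPS and PBS, Gfap and Gja1, both higher after LPS, against 7.86% of all genes tested. The likelihood-ratio test and DESeq2 each called 2, beside 1594 and 1556 of all genes. Gfap had 0 to 8 counts in ELS-PBS mice and 0, 14, 18, 42 and 55 counts in the ELS-LPS mice. In CPM these 5 were 0, 0.865, 1.05, 2.31 and 4.06. The groups overlapped through the ELS-LPS mouse at 0, and the other 4 lay above all ELS-PBS mice. Gfap rose by 3.92 on the log2 scale (SE 0.86, adjusted p = 0.000787 in edgeR's quasi-likelihood test), with an exact permutation p = 0.0390 (2-sided). Adjusted over the 4 exact tests it was 0.0519, past 0.05, and neither value counts the choice of the gene. The call was lost with only the groups compared (adjusted p = 0.0579).

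Gja1, the gap junction gene, had 0 counts in 4 ELS-PBS mice and 1 and 11 in the others, and 2, 12, 28, 39 and 66 counts in the ELS-LPS mice. In CPM the ELS-LPS mice were at 0.124, 0.659, 2.07, 2.82 and 3.86. All but the lowest lay above all ELS-PBS mice. Its log2 fold change was 4.47 (SE 0.99, adjusted p = 0.000957 in edgeR's quasi-likelihood test), and the exact permutation test gave p = 0.00866 (2-sided), or 0.0233 adjusted over the 4 exact tests, neither counting the choice of the gene. Leaving out 1 adult at a time, the log2 fold change of Gja1 ran from 4.03 to 7.05 and that of Gfap from 3.30 to 4.62, and both stayed called. In CTR the values were 0.62 (SE 0.59) for Gfap and 0.67 (SE 0.74) for Gja1, neither called. Without ELS-PBS-17.2, Aldh1l1 was called in ELS too (5.32, adjusted p = 0.0396).

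The interaction of LPS and condition called 0 of 9 members in edgeR's quasi-likelihood test, against 0% of all genes tested, so that the calls made in 1 condition alone were not shown to differ between conditions. At an unadjusted p under 0.05, again with no share of all genes given, there were 4 members. They were Gja1 (3.798, SE 1.24), Gfap (3.29, SE 1.05), Metrn (2.80, SE 0.79) and Clu (-2.02, SE 0.98), and the lowest adjusted p was 0.281. DESeq2 called 0 members and 11 of all genes, and the likelihood-ratio test called 1 member, Metrn (2.78, adjusted p = 0.0285), and 66 of all genes. The comparisons of ELS with CTR in PBS mice and of LPS with PBS share the PBS mice, in which Gfap and Gja1 were lowest in ELS and Metrn highest in CTR.

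Other lists also moved with LPS. Of 9 tested genes of reactive astrocytes, 5 were higher in CTR (Cxcl10, Osmr, Steap4, Lcn2 and Cd44) and 4 in ELS (all but Cd44). Their sum was 13.4 ± 2.92 CPM (SD, n = 7) in CTR-PBS and 467 ± 231 (n = 7) in CTR-LPS, of which the chemokine gene Cxcl10 held 96.0%. Osmr and Steap4 had 0 counts in all CTR-PBS mice and 2.097 ± 2.15 and 1.96 ± 1.52 CPM in CTR-LPS. Myeloid cells also express Cxcl10, so that this list is not particular to astrocytes. Of 33 genes of the wider astrocyte list, 3 were higher and 1 lower (Cldn10) in CTR, and 2 were higher in ELS. F3 rose from 6.71 ± 3.25 to 99.1 ± 25.9 CPM in CTR and from 3.62 ± 2.59 (n = 6) to 103 ± 51.25 (n = 5) in ELS.

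Radial glia markers summed to 4.91 ± 1.59 CPM in CTR-LPS and 3.38 ± 0.976 in ELS-LPS, with 0 of 8 called in both in edgeR's quasi-likelihood test, and neuron markers to 15.8 ± 8.22 and 9.71 ± 4.95, with 0 of 10 called in both. Chrdl1 was at 0 in all mice of both groups. Of the 8 endothelial genes 3 were higher in CTR and 1 in ELS, with Slc2a1 at 122 CPM in CTR-PBS and 575 in CTR-LPS. Slc2a1 held 69.4% of the list's sum in CTR-PBS and 88.5% in CTR-LPS, so that the sum mostly followed this gene. Ly6c1 of the same list was at 0 in all adults, and Cldn5 and Slco1a4 in all ELS-PBS and ELS-LPS mice. Of 11 microglia markers 1, the transcription factor gene Sall1, was lower in both (-1.73, SE 0.16, in CTR and -2.01, SE 0.18, in ELS). In CTR 3 of 5 red cell genes were higher, with 1 mouse at a sum of 29.6 CPM and group medians of 0.376 in CTR-PBS and 0.358 in CTR-LPS. There 1 of 5 border macrophage genes was higher, and in ELS 1 of 5 precursor genes was.

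Members were also compared across mice of 1 age, as correlations of log2 CPM centred on the group means, with 100000 permutations within groups (2-sided, smallest possible p 1e-05). The family held 124 pairs over both ages: the member pairs, and Slc1a3 and Slc1a2 with the most abundant gene of each of 13 other lists, the latter added after the member pairs had been seen. Among the 25 pups, Slc1a3 correlated with 6 of the 8 other members at an adjusted p under 0.05, all with a positive r. With Slc1a2 the Pearson r was 0.833 (p = 4e-05, adjusted p = 0.000451) and Spearman's rho 0.785 (p = 1e-05). With the 2 mice at the greatest distance from the Slc1a2 median left out, r was 0.618, and it was 0.805 within P9-CTR, 0.861 within P9-ELS and 0.895 with values centred within each number before the point. Gfap (r = 0.400, permutation p = 0.0758, rho = 0.659 with p = 0.00093) and Metrn (r = 0.046, permutation p = 0.846, rho = 0.044 with p = 0.839) were the other 2. Without the 3 libraries with fewest genes, r with Gfap was 0.802. Aldh1l1 was among the 6 (r of 0.62 with rho of 0.662, permutation p = 0.01 and 0.00045, and adjusted p = 0.0445 for r), and its r was 0.340 without the 2 mice farthest in Slc1a3, so that the size of r rested in part on them. It was 0.700 without the 3 libraries with fewest genes, 0.677 within P9-CTR and 0.632 within P9-ELS. With Clu, r was 0.772 (permutation p = 1e-05) and rho 0.809 (p = 1e-05), and r was 0.757 with the 2 mice farthest in Slc1a3 left out. Of the 28 pairs without Slc1a3, 13 passed at day 9.

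In the pups Slc1a3 moved in the same way with Map2 of the neuron list, with r = 0.811 (permutation p = 1e-05, adjusted p = 0.000155), rho = 0.776 (p = 2e-05), r = 0.693 without the 2 farthest mice and 0.881 within numbers. Fabp7 of radial glia gave r = 0.695 (permutation p = 0.00066, adjusted p = 0.00409) and rho = 0.718 (p = 0.00026), and r = 0.663 without the 2 farthest mice and 0.854 within numbers. Olig1 of oligodendrocyte precursors gave r = 0.734 (permutation p = 0.00063, adjusted p = 0.00409) and rho = 0.527 (p = 0.00833), and r was 0.343 without the 2 farthest mice, so that its size rested in part on them. It was 0.572 without the 3 libraries with fewest genes, 0.903 within P9-CTR and 0.674 within P9-ELS. Slc1a2 gave with Map2 an r of 0.729 and a rho of 0.679 (permutation p = 0.00016 and 0.00022, and adjusted p = 0.00132 for r), and r was 0.528 without the 2 farthest mice. With Olig1 its r was 0.781 and its rho 0.492 (permutation p = 0.00039 and 0.0121, and adjusted p = 0.00284 for r), and r was 0.412 without the 2 farthest mice. With Rgs5 of mural cells its r was 0.539 and its rho 0.559 (permutation p = 0.0076 and 0.00886, and adjusted p = 0.0349 for r), and r was 0.584 without them. Without the 3 libraries with fewest genes r was 0.404 for Olig1 and 0.334 for Rgs5, and within P9-CTR it was 0.605 and 0.132. With Fabp7 the r of Slc1a2 was 0.358 and its rho 0.569 (permutation p = 0.169 and 0.00546, adjusted p = 0.341 and 0.0212), so that this pair passed by rho and not by r. Its r was 0.122 without the 2 farthest mice, 0.743 without the 3 libraries with fewest genes and 0.666 within numbers. The other members were not paired with genes of other lists.

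Among the 25 adults, 1 of the 8 pairs of Slc1a3 with another member passed and its sign was negative: with Sparcl1 r was -0.589 (permutation p = 0.00639, adjusted p = 0.0305) and rho -0.616 (p = 0.00352). It was -0.595 without the 2 farthest mice and -0.458 within numbers. With Slc1a2, r was -0.385 (permutation p = 0.115, rho = -0.185 with p = 0.406). Of the 28 pairs without Slc1a3, 0 passed. Cnp of oligodendrocytes gave with Slc1a3 r = -0.712 (permutation p = 0.00496, adjusted p = 0.0251) and rho = -0.568 (p = 0.00854), and r was -0.298 without the 2 farthest mice and so rested on them. Whether the correlations differ between the ages was not tested, and the low counts of the 8 other members limit them in adults.

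**Figure D4:**
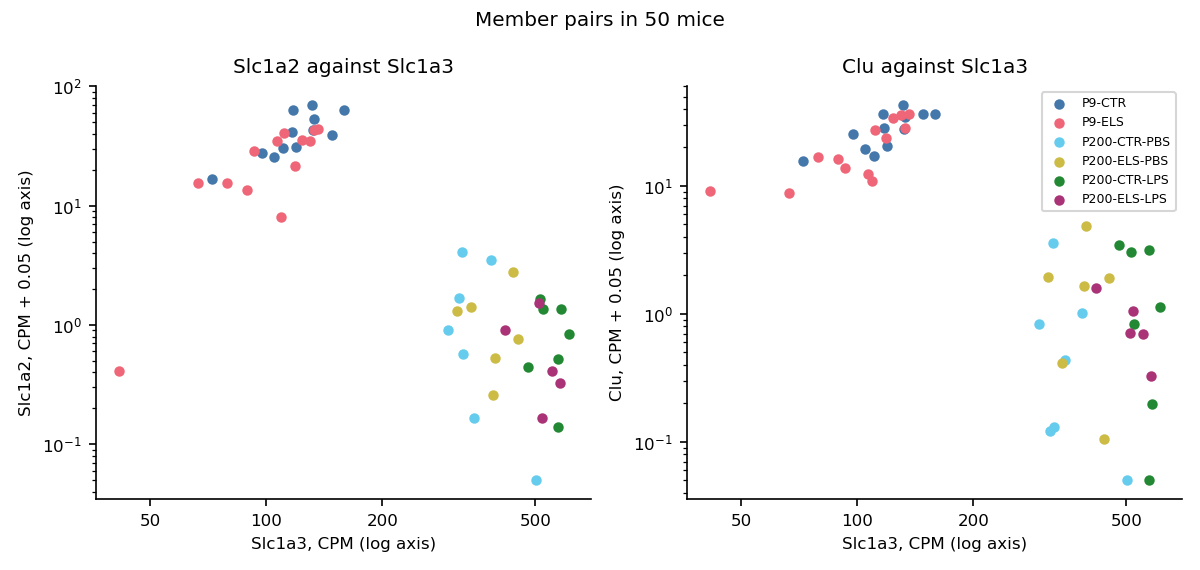
Each point is 1 of 50 mice, coloured by group, with Slc1a3 in CPM on the x axis and Slc1a2 (left) or Clu (right) in CPM plus 0.05 on the y axis, both log axes. Pups form a rising band (r = 0.833 for Slc1a2 and 0.772 for Clu within groups), and adults lie at higher Slc1a3 with Slc1a2 at or below 4.03 CPM.

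Over all 50 mice and 12360 genes, the 9 genes whose centred log2 CPM was most like that of the summed members were Tcp11l2 (r = 0.706), Emp2 (0.672), Prepl (0.672), Dnaaf5 (0.658), F3 (0.640), Ctnnd2 (0.634), Ppm1k (0.624), E130114P18Rik (0.621) and Spaca6 (0.621). This is a description. In adults the sum is nearly all Slc1a3, while in pups Slc1a3 made up a mean of 37.1% (P9-CTR) and 41.6% (P9-ELS). Likeness to Slc1a3 alone was not tested.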

How the data were processed

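The microglia of 50 mice gave 1 library each. Reads were aligned by the authors to GRCm39 in STAR, and HTSeq 0.11.0 summed them per gene, and the deposited values are raw counts per gene without normalization. The submitters' processing notes also name bcl2fastq 2.20 and cutadapt 2.10. The annotation release and strand setting are not given in the sources used here. Groups follow the age, condition and treatment in the labels.

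Counts were normalized by TMM in edgeR 4.0.16, run in R 4.3.3. The genes that reached 1 CPM in 3 or more mice were fitted with 6 group means over all 50 mice and tested by contrasts with the quasi-likelihood test, adjusted over all 16696 genes. The fit was first tested on simulated data. A prior count of 2 went into log2 CPM. The steps in Python 3.11.15 used pandas 2.3.3, scipy 1.17.1 and numpy 2.4.6, and matplotlib 3.10.9 drew the figures. Gene positions, transcript lengths and promoter windows came from GENCODE on GRCm39, where 52610 of the 53700 genes were found.

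The members and lists were chosen with earlier results of these data known. The genes named are all members, the most abundant gene of most lists, the 3 called list genes with the largest increase and decrease per comparison, list genes at 0 in every mouse of a group, and the 9 genes most like the summed members. Of the list genes at 0, only some are named. Where a count of called list genes was 5 or fewer, some of those genes are also named, chosen after their values were seen.

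Alternatives were the likelihood-ratio test, DESeq2 1.42.0, its size factors in edgeR, 2 other filters, only the groups compared, fits without the 3 libraries with fewest genes or without each adult mouse, a replicate block, counts summed per number and, for sums, other totals. The exact permutation tests and the correlations were added after seeing the data. A longer form of the nuclear factor I motif was searched too and stood before 0 of 9 members. Among 211 pairs of mice within groups, none had counts as alike as repeated sampling of 1 library would give. The limit of 3 counts covers counting error only.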

Additional observations from a re-analysis of the deposited data

Results flagged for a closer look

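In 7 of 44 sets of values in adult groups, 1 mouse lay far from the rest of its group. The rule takes about 1 such group in 20 by chance, a rate that need not hold for low values with many mice at 0. The sets also overlap, since the sum of the 8 members contains Aqp4 and Clu. Whether 7 of 44 is more than chance gives was therefore not tested. The mouse CTR-PBS-18.2 was highest for Aqp4 (1.81 CPM, the next at 0.556), for Clu (3.55 CPM, the next at 0.962) and for the sum of the 8 members without Slc1a3 (18.8 CPM, the next at 10.2). In the same group CTR-PBS-1.1 was highest for Slc1a3 (503 CPM, the next at 384) and for Metrn (5.90 CPM, the next at 2.65), and it was at 0 counts for Gfap, Slc1a2, Aldh1l1, Gja1, Sparcl1 and Clu. ELS-PBS-17.2 was the only mouse of its group with Aldh1l1 (0.814 CPM), and ELS-PBS-4.1 was highest for Gja1 (0.391 CPM, the next at 0.0543). Leaving out each of these mice changed a call as given with the comparisons, and the cause was not tested.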

How the results depend on the processing

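Between the ages, the 7 members lower and Slc1a3 higher in CTR, and all 9 members in ELS, were called in every alternative run, and the count in CTR was 8 or 9. The count between ELS-PBS and CTR-PBS was 1, and it was 2 with the likelihood-ratio test and DESeq2, 0 with DESeq2 size factors in edgeR, all genes with a count, only the groups compared or counts summed per number, and 0 to 1 without single mice. For LPS in CTR it was 1, and 0 with only the groups compared and 0 to 2 without single mice. For LPS in ELS it was 2, and 1 with only the groups compared and 2 to 3 without single mice. The interaction of LPS and condition had 0 members, and 1 with the likelihood-ratio test. Apart from construction (fewer genes, mice or groups), the cause was not tested.

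Directions turned only for values that were not called. Without the 3 libraries with fewest genes, Aldh1l1 between ELS and CTR at day 9 was 0.016, Sparcl1 with LPS in CTR -0.16, the age interaction of Slc1a2 -0.18 and of Sparcl1 -0.14, and the LPS interaction of Slc1a2 0.15. With only the groups compared the LPS interaction of Slc1a2 was 0.0084, and with counts summed per number Metrn at day 9 was -0.028.

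Without single adult mice, log2 fold changes between ELS-PBS and CTR-PBS ran from -1.64 to 0.49 for Aqp4, -0.89 to 0.048 for Slc1a2 and -1.18 to 0.50 for Sparcl1. With LPS in CTR they ran from -0.72 to 0.80 for Aqp4, -0.0036 to 1.37 for Gja1 and -0.54 to 1.16 for Sparcl1, and in ELS from -1.16 to 0.69 for Aqp4. Between ELS-LPS and CTR-LPS they ran from -0.89 to 0.13 for Gfap and -0.51 to 0.39 for Sparcl1. The age interaction ran from -1.26 to 0.86 for Aqp4, -0.19 to 0.75 for Slc1a2 and -0.50 to 1.18 for Sparcl1, and the LPS interaction from -0.98 to 1.14, -0.64 to 0.38 and -0.71 to 0.98 for the same genes.

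With the number before the point as a replicate block, LPS against PBS called 0 members in CTR and 1 in ELS. Metrn in CTR was -3.01 (adjusted p = 0.0668 in edgeR's quasi-likelihood test), Gfap in ELS 4.60 (adjusted p = 0.0696), and in CTR Aqp4 was 1.21 and Slc1a2 0.16, both with the other sign. Each adult number belongs to 1 rearing condition. Adult mice with the same number correlated between -0.041 and 0.084 over 10 numbers, across all genes tested. Noise of low counts and of single mice lowers such an r, so that it cannot decide whether the members share an effect of the number. The adults were not treated as pairs. The numbers of pups were not checked in this way.

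The sum of members without Slc1a3 was 211 CPM in P9-CTR, 150 in P9-ELS, 8.55 in CTR-PBS, 4.60 in ELS-PBS, 7.83 in CTR-LPS and 7.23 in ELS-LPS. Scaled by total counts without TMM, the sum of 9 was 365 in CTR-PBS, 399 in ELS-PBS, 511 in CTR-LPS and 458 in ELS-LPS. With TMM these sums were 365, 392, 557 and 523 CPM. The difference between LPS and PBS was thus smaller without TMM in both conditions.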
